A study of Mus musculus with 6 samples.

Results

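The genes described here are 10 transcription factors and coactivators of the B lineage: Tcf3, Ebf1, Pax5, Foxo1, Ikzf1, Ikzf3, Spi1, Spib, Pou2af1 and Bach2. Every probe set whose single annotated gene symbol is one of these names was taken. That gave 25 probe sets for 10 genes, of 34945 probe sets with 1 gene symbol and 18193 genes on the array. Ebf1 had 5 probe sets, the most of the 10, while Spi1, Spib and Pou2af1 had 1 each.

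The study hybridised RNA of sorted mouse B cells from bone marrow to 6 Affymetrix arrays, 2 for each of 3 groups. TAK1-deficient Igκ+ cells had the genotype label mb-1/TAK1f/f. Wild-type Igλ+ and wild-type Igκ+ cells carried the label mb-1/TAK1+/+, so all 3 groups share mb-1, an older name of Cd79a. All mice were C57BL/6 animals of both sexes, 8 to 12 weeks old and untreated. After removal of cells positive for Gr1, DX5, CD11b, Ter119 or CD3, the sort took cells with Igκ or with Igλ at the surface. The labels name no recombinase, and they do not state whether replicates are separate animals or pools of animals. The p-values below set a difference against the spread of samples within groups, pooled over all 6 arrays and drawn toward that of other genes. That spread may be technical. With bulk RNA, fewer cells of a type and less RNA per cell cannot be told apart.

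B cell identity is built by a small circuit of transcription factors. E proteins such as those made from Tcf3 (E12 and E47) act with Ebf1 and Foxo1 to specify the lineage, and Pax5 then commits cells to it by switching on B cell genes and repressing genes of other lineages. Ikaros family zinc finger proteins (Ikzf1, Ikzf3), the ETS factors PU.1 (Spi1) and Spi-B (Spib), the octamer coactivator OBF-1 (Pou2af1) and the repressor Bach2 shape the later stages. TAK1 is a kinase, the product of Map3k7, that acts upstream of NF-κB and of the stress-activated MAP kinases.

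The TAK1-deficient arrays stood apart from the other 4 before any member was considered. Each array was scaled to a trimmed mean signal of 500, yet the median signal was 324 and 323 in TAK1-deficient Igκ+ cells and 44.9 to 59.1 in wild-type cells. Spiked hybridization controls had geometric means of 41197 to 47043 in TAK1-deficient cells and 3985 to 4608 in wild-type cells, and the 95th percentile of 27 unspiked control probe sets was 75.7 to 77.7 against 10.3 to 17.4. That percentile serves below as the background level of an array. The ratio of 3′ to 5′ signal of Actb was 4.18 to 6.28 against 1.25 to 1.58, and log2 signals correlated at r = 0.919 within the TAK1-deficient pair, at 0.432 to 0.510 between TAK1-deficient and wild-type arrays and at 0.962 to 0.984 among wild-type arrays, across probe sets, which are not independent. In TAK1-deficient minus wild-type Igκ+ cells, the median log2 difference was 4.78 in the decile of genes with the lowest wild-type signal and -1.27 in the decile with the highest. Genes were kept only if their mean over all 6 arrays passed a filter, at a level of 65.2. The lowest decile, at wild-type levels under 34.6, passed only through the TAK1-deficient arrays, so its high median was largely set by the filter. The part of these array differences in the results below was not tested. Map3k7 itself had signals of 346 and 599 in TAK1-deficient Igκ+ cells, 2149 and 1957 in wild-type Igλ+ cells and 2196 and 1805 in wild-type Igκ+ cells, but whether its probes lie in the deleted part is not given in the sources used here, so this is no check of the genotype. B cell markers were bright on all 6 arrays: the summed signal of 9 of them was 90217 to 100715 in TAK1-deficient Igκ+ cells, 73188 to 76482 in wild-type Igλ+ cells and 70122 to 78140 in wild-type Igκ+ cells.

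In TAK1-deficient against wild-type Igκ+ cells, 7 of the 10 member genes passed the test, which here means a limma moderated test on log2(signal + 16) with a Benjamini-Hochberg adjusted p under 0.05 over 11696 genes. A gene is represented here by its probe set of highest mean signal. Ebf1 was higher on its representative probe set, and Tcf3, Foxo1, Ikzf1, Ikzf3, Spi1 and Bach2 were lower. Pax5, Spib and Pou2af1 did not pass. Of all genes tested, 75.9% passed in this comparison, 26.1% higher and 49.8% lower, so a count of 7 of 10 lies near that background. The median log2 difference was -0.98 over the members and -0.70 over all genes. Signals of the pairs of arrays did not overlap for 8 member genes, 2 higher and 6 lower, while 89.6% of all genes did not overlap (31.8% higher and 57.8% lower). By probe set, 19 of the 24 members that passed the filter on low signal were called, 2 higher and 17 lower, beside 72.4% of all probe sets (31.1% higher and 41.3% lower). The remaining probe set, Pax5 1421765_at, lay under the filter. Beside the deposited scaling, 4 others were run: quantile normalization, centring of each array on its median, scaling to the spiked controls, and a level adjustment that takes out each TAK1-deficient array's trend against the wild-type level.

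**Figure D1:**
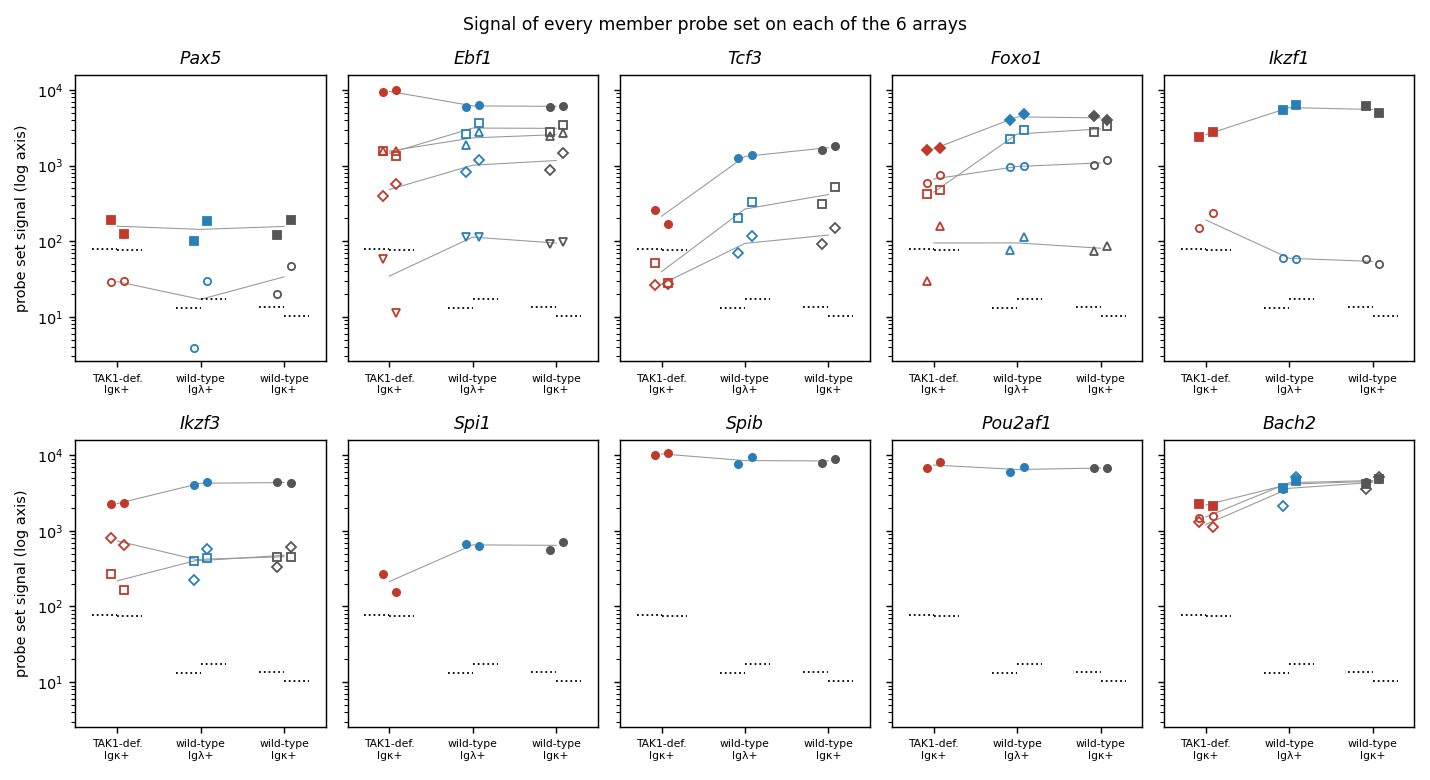
Signals of all 25 member probe sets (vertical log axis, array intensity) on each array, by gene. Points are single arrays of TAK1-deficient Igκ+ (red), wild-type Igλ+ (blue) and wild-type Igκ+ cells (grey), filled symbols mark the probe set that represents the gene, grey lines join group arithmetic means, and dotted lines give each array's background level, 75.7 to 77.7 with TAK1-deficient and 10.3 to 17.4 with wild-type RNA. The red points of Tcf3 lie below all wild-type points on each of its 3 probe sets, and those of 1 Ebf1 probe set lie above.

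Promoters were set beside these changes because TAK1 acts upstream of NF-κB. RefSeq (assembly GRCm38.p6) gave the 250 bases before the start for 8 of the 10 members, 10 promoters in all. Of these, 5 are shown so that members called lower in TAK1-deficient cells (Tcf3, Foxo1 and Bach2) can be read beside members not called (Spib and Pou2af1). Capitals mark matches on either strand to the NF-κB pattern (GGG, any 5 bases, CC) or the EBF pattern (TCCC, any 2 bases, GGGA).
Tcf3: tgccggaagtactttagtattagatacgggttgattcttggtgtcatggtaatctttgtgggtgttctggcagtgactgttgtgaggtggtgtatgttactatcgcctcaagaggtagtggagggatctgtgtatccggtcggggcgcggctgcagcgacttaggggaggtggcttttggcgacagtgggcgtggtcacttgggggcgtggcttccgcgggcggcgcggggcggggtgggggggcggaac
Foxo1: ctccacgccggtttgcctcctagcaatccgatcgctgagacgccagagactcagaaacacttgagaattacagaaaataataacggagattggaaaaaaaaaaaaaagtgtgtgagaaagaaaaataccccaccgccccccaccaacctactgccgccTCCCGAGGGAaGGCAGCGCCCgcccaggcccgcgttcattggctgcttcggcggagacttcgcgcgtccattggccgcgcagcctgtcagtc
Bach2: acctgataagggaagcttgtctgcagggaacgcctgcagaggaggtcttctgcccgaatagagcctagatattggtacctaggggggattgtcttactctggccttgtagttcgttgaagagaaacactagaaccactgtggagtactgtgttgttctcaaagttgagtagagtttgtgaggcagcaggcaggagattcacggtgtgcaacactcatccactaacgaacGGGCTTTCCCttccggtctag
Spib: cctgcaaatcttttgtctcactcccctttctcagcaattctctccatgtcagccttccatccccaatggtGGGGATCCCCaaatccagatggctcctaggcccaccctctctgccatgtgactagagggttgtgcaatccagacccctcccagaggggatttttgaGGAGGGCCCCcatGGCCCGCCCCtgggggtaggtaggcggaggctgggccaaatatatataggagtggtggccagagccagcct
Pou2af1: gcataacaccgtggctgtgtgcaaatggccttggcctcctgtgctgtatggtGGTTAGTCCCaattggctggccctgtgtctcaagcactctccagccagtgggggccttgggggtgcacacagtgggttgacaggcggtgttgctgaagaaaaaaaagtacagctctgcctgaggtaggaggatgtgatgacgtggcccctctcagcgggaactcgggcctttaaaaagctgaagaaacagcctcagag
Each line runs 5′ to 3′ on the gene's strand. The Tcf3 stretch, chr10:80433636-80433885 (minus strand), held no match to either pattern. Bach2, chr4:32417185-32417434 (plus strand), held the NF-κB match GGGCTTTCCC, 21 to 12 bases before the start. Foxo1, chr3:52268087-52268336 (plus strand), held the EBF match TCCCGAGGGA, 92 to 83 bases before the start, and an NF-κB match 81 to 72 bases before it. Spib, chr7:44532072-44532321 (minus strand), held 3 NF-κB matches, the 5′-most being GGGGATCCCC, and Pou2af1, chr9:51213440-51213689 (plus strand), held 1. Over all 10 member promoters, the NF-κB pattern matched in 7 and the EBF pattern in 1, where 45.8% and 0.779% of 32851 RefSeq promoters of the same length held them. The E-box CANNTG matched in 6 (66.2% of all promoters) and the octamer ATTTGCAT in 0 (1.6%). Matches occurred in called and uncalled members alike, and a match is a run of letters, not a bound site.

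Tcf3 makes E12 and E47, the E proteins that bind E-boxes in immunoglobulin enhancers and early B cell genes. Its representative probe set, 1426297_at, had signals of 259 and 169 in TAK1-deficient Igκ+ cells, 1259 and 1387 in wild-type Igλ+ cells and 1627 and 1831 in wild-type Igκ+ cells. Both TAK1-deficient values lay below every wild-type value, and the TAK1-deficient mean was 12.4% of the wild-type Igκ+ mean. The log2 difference was -2.95 ± 0.26 (SE, 2 arrays a group), with a limma adjusted p of 2.56e-05. Probe set 1427764_a_at gave 51.5 and 27.6 in TAK1-deficient Igκ+ cells, 205 and 328 in wild-type Igλ+ cells and 309 and 520 in wild-type Igκ+ cells. The TAK1-deficient readings were not above background, so the difference is a bound, with the background level in place of a dimmer reading: at least 4.5-fold brighter in wild-type Igκ+ cells (limma adjusted p = 0.000279 for the fitted difference). Probe set 1452542_x_at, whose suffix marks probes that can also match other genes, gave 26.5 and 27.4, 70.8 and 116, and 90.7 and 150 in the same order of groups. It too was at background in TAK1-deficient cells, at least 1.4-fold brighter in wild-type Igκ+ cells (limma adjusted p = 0.0033). All 3 probe sets were thus called lower.

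Tcf3 was called lower in TAK1-deficient Igκ+ cells under all 18 alternative settings run, with log2 differences of -6.06 to -1.59. It had the lowest log2 difference of the 10 members under each of the 5 scalings. Of these, median centring and spike-in scaling move the members largely alike and so mostly leave their order. Its place among all probe sets of an array was percentile 35.2 in TAK1-deficient Igκ+ cells, 85.4 in wild-type Igλ+ cells and 88.3 in wild-type Igκ+ cells (means of 2 arrays). Genes with a like wild-type level had a median log2 difference of -1.43, from which Tcf3 deviated by -1.52.

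Ebf1 (early B cell factor 1) opens and activates B lineage genes such as Cd79a and Cd79b, and its probe sets disagreed. Probe set 1416301_a_at, which represents the gene, had signals of 9309 and 9899 in TAK1-deficient Igκ+ cells, 5926 and 6411 in wild-type Igλ+ cells and 5983 and 6172 in wild-type Igκ+ cells. TAK1-deficient values lay above all wild-type values, with a log2 difference of 0.66 ± 0.12 (SE; limma adjusted p = 0.00124), which turned to -1.72 after centring on the median and to -2.79 after scaling to the spiked controls. Probe set 1416302_at went the other way. Its signals were 1561 and 1357 in TAK1-deficient Igκ+ cells, 2644 and 3636 in wild-type Igλ+ cells and 2770 and 3447 in wild-type Igκ+ cells, a log2 difference of -1.08 ± 0.21 (limma adjusted p = 0.00167) that was not called under quantile normalization and turned to 0.38, not called, with the level adjustment. Probe sets 1439789_at and 1448293_at were also called lower, at -1.22 and -0.71. With the level adjustment 1439789_at was not called and 1448293_at turned to 0.78, called higher (limma adjusted p = 0.0188). Under quantile normalization 1448293_at was 0.056 and not called. Probe set 1457441_at was at background on both TAK1-deficient arrays (57.9 and 11.2, against 113 and 114 in wild-type Igλ+ cells and 92.5 and 96.1 in wild-type Igκ+ cells).

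A ratio of probe sets within an array does not depend on the factor by which that array was scaled. The signal of Ebf1 1416301_a_at divided by that of 1416302_at was 5.96 and 7.29 in TAK1-deficient Igκ+ cells, 2.24 and 1.76 in wild-type Igλ+ cells and 2.16 and 1.79 in wild-type Igκ+ cells. These readings of Ebf1 therefore moved unequally, and no single direction holds for the gene over its 5 probe sets: the mean of all of them gave -0.73. A ratio still carries differences between arrays in background and in 3′ to 5′ signal, given above, whose part was not tested.

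Pax5 commits cells to the B lineage, and its signals were dim. Probe set 1454401_at gave 191 and 125 in TAK1-deficient Igκ+ cells, 101 and 186 in wild-type Igλ+ cells and 120 and 193 in wild-type Igκ+ cells. All 3 groups overlapped. The log2 difference of TAK1-deficient minus wild-type Igκ+ cells was 0.02, with a 95% interval of -0.96 to 0.99 (limma adjusted p = 0.975), which leaves room for a change of almost 1 log2 unit either way. Under quantile normalization, median centring and spike-in scaling the value was -2.24, -2.37 and -2.93 and was called lower. The second probe set, 1421765_at, read 29.0 and 29.4 in TAK1-deficient Igκ+ cells, not above background, and 3.84 and 30.2 in wild-type Igλ+ cells and 20.0 and 47.5 in wild-type Igκ+ cells.

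**Figure D2:**
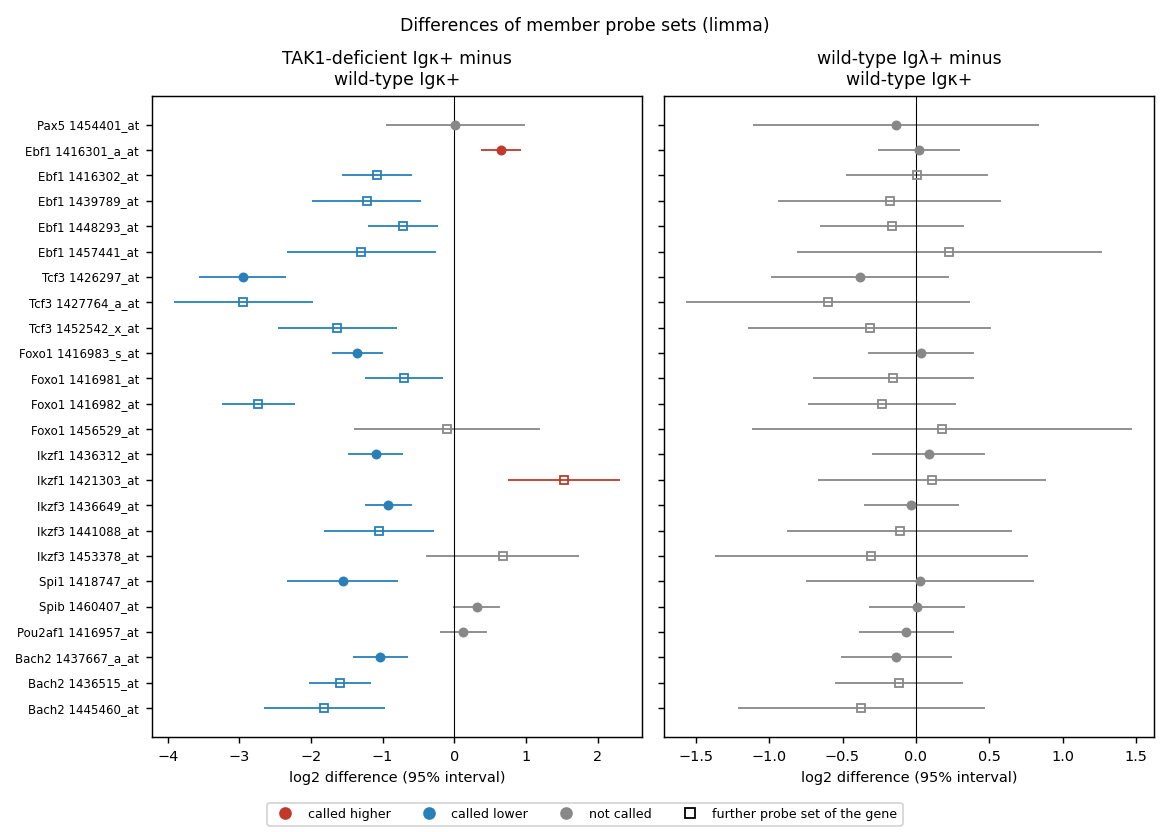
Log2 differences (horizontal axis) of the 24 member probe sets that passed the filter, with 95% intervals from limma, for TAK1-deficient minus wild-type Igκ+ cells on the left and wild-type Igλ+ minus wild-type Igκ+ cells on the right. Filled circles are the representative probe sets, open squares the further ones, and colour shows the call with signals as deposited, some of which turn with the scaling. On the left, 17 probe sets were called lower and 2 higher, and on the right 0 were called.

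Foxo1, a forkhead factor that PI3 kinase signalling keeps out of the nucleus, activates Rag genes and homing receptors in B cells. Its representative probe set, 1416983_s_at, had signals of 1629 and 1704 in TAK1-deficient Igκ+ cells, 4000 and 4817 in wild-type Igλ+ cells and 4506 and 4061 in wild-type Igκ+ cells. TAK1-deficient and wild-type values did not overlap, and the log2 difference was -1.35 ± 0.16 (SE; limma adjusted p = 9.66e-05). This is close to the median of -1.27 among genes of like wild-type level, and with the level adjustment the value was -0.05 and not called (limma adjusted p = 0.824). Probe set 1416982_at gave 418 and 472 in TAK1-deficient Igκ+ cells, 2242 and 2996 in wild-type Igλ+ cells and 2772 and 3342 in wild-type Igκ+ cells, a log2 difference of -2.73 ± 0.22 (limma adjusted p = 1.3e-05). Probe set 1416981_at differed by -0.70 and was called lower, which turned to 0.42 with the level adjustment, and the dim 1456529_at was not called (-0.10, 95% interval -1.40 to 1.19), though it was called lower under each of the 4 other scalings. The ratio of 1416983_s_at to 1416982_at within an array was 3.90 and 3.61 in TAK1-deficient Igκ+ cells, 1.78 and 1.61 in wild-type Igλ+ cells and 1.63 and 1.22 in wild-type Igκ+ cells, so these readings of Foxo1 also moved unequally.

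Ikzf1 (Ikaros) and Ikzf3 (Aiolos) are zinc finger proteins that silence pre-B cell genes as cells mature. The representative probe set of Ikzf1, 1436312_at, gave 2356 and 2779 in TAK1-deficient Igκ+ cells, 5447 and 6265 in wild-type Igλ+ cells and 6115 and 4942 in wild-type Igκ+ cells. That was a log2 difference of -1.10 ± 0.17 (limma adjusted p = 0.00042), lower on both TAK1-deficient arrays, but not called under quantile normalization (-0.40, limma adjusted p = 0.117) or with the level adjustment (0.07, limma adjusted p = 0.743). Its dim second probe set, 1421303_at, was called higher: 148 and 234 in TAK1-deficient Igκ+ cells, 60.1 and 58.6 in wild-type Igλ+ cells and 58.9 and 49.2 in wild-type Igκ+ cells, a log2 difference of 1.53 ± 0.34 (limma adjusted p = 0.00328) that turned negative under all 4 other scalings (-1.34 to -0.52). Every wild-type reading of 1421303_at lay under the filter level of 65.2, so it was tested only through its TAK1-deficient readings. The higher direction was thus fixed in advance, and no conclusion is drawn from this call. The ratio of 1436312_at to 1421303_at within an array was 15.96 and 11.9 in TAK1-deficient Igκ+ cells, 90.7 and 107 in wild-type Igλ+ cells and 104 and 100.5 in wild-type Igκ+ cells, so these readings moved unequally as well.

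Ikzf3 probe set 1436649_at had signals of 2236 and 2365 in TAK1-deficient Igκ+ cells, 4053 and 4493 in wild-type Igλ+ cells and 4467 and 4259 in wild-type Igκ+ cells. Both TAK1-deficient values lay below all others, by a log2 difference of -0.92 ± 0.14 (SE; limma adjusted p = 0.00044). It was not called under quantile normalization (-0.13, limma adjusted p = 0.472), and its direction turned to 0.39, called higher, with the level adjustment (limma adjusted p = 0.0477). The further probe set 1441088_at was called lower at -1.04, but not with the level adjustment. Probe set 1453378_at gave 815 and 660 in TAK1-deficient Igκ+ cells, 226 and 584 in wild-type Igλ+ cells and 331 and 620 in wild-type Igκ+ cells, and its difference of 0.67 (95% interval -0.39 to 1.74) was not called. The ratio of 1436649_at to 1453378_at was 2.74 and 3.58 in TAK1-deficient Igκ+ cells, 17.9 and 7.69 in wild-type Igλ+ cells and 13.5 and 6.87 in wild-type Igκ+ cells.

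Among the ETS factors, Spi1 (PU.1) and Spib (Spi-B) bind much the same DNA sites and share work in B cells. Spi1 had signals of 270 and 158 in TAK1-deficient Igκ+ cells, 675 and 632 in wild-type Igλ+ cells and 567 and 722 in wild-type Igκ+ cells. TAK1-deficient values lay below all wild-type values, with a log2 difference of -1.56 ± 0.34 (SE; limma adjusted p = 0.00294), and it was not called with the level adjustment (-0.84, limma adjusted p = 0.0794). PU.1 is also the leading factor of myeloid cells, so the summed signal of 9 monocyte and macrophage markers is given beside it: 3176 to 3384 in TAK1-deficient Igκ+ cells, 540.5 to 10098 in wild-type Igλ+ cells and 928 to 2226 in wild-type Igκ+ cells. In TAK1-deficient cells 2 of the 9 were at or below background on both arrays. In the wild-type Igλ+ pair, where this sum differed most, Spi1 read 675 on the array with the higher sum and 632 on the other. The part of other cells in the Spi1 difference was not tested.

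Spib had signals of 10127 and 10779 in TAK1-deficient Igκ+ cells, 7619 and 9405 in wild-type Igλ+ cells and 7970 and 8894 in wild-type Igκ+ cells. TAK1-deficient values lay above the others, yet the log2 difference of 0.31 (95% interval -0.01 to 0.64) did not pass (limma adjusted p = 0.0745). This depended on the scaling: Spib was called lower with median centring and spike-in scaling (-2.07 and -3.14) and higher with the level adjustment (1.26). Its percentile within an array was 99.6 in TAK1-deficient Igκ+ cells, 99.5 in wild-type Igλ+ cells and 99.6 in wild-type Igκ+ cells. The 2 ETS members thus stood on different sides of the all-gene median of -0.70, Spi1 at -0.86 and Spib at 1.01 from it. The difference between the 2 genes was not tested.

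Pou2af1 (OBF-1, also called Bob.1) joins octamer-binding factors at immunoglobulin promoters and is needed for germinal centres. Its signals were 6804 and 8065 in TAK1-deficient Igκ+ cells, 6031 and 6964 in wild-type Igλ+ cells and 6864 and 6707 in wild-type Igκ+ cells. The 3 groups overlapped. The log2 difference of TAK1-deficient minus wild-type Igκ+ cells was 0.13 (95% interval -0.20 to 0.45, limma adjusted p = 0.433), a fold between 0.872 and 1.37 with signals as deposited. Pou2af1 was called lower with median centring and spike-in scaling (-2.25 and -3.32) and higher with the level adjustment (1.21).

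Bach2 represses Prdm1 and so holds B cells back from becoming plasma cells. Its representative probe set, 1437667_a_at, gave 2255 and 2147 in TAK1-deficient Igκ+ cells, 3673 and 4624 in wild-type Igλ+ cells and 4213 and 4851 in wild-type Igκ+ cells. All 3 Bach2 probe sets were lower on both TAK1-deficient arrays than on any wild-type array. The representative log2 difference was -1.03 ± 0.17 (SE; limma adjusted p = 0.000568), and those of 1436515_at and 1445460_at were -1.59 and -1.82 (limma adjusted p = 9.78e-05 and 0.00202). The representative value was not called under quantile normalization (-0.24, limma adjusted p = 0.247) or with the level adjustment, where it turned to 0.27 (limma adjusted p = 0.222) and neither of the others was called. The ratio of 1437667_a_at to 1436515_at was 1.53 and 1.35 in TAK1-deficient Igκ+ cells, 1.01 and 0.915 in wild-type Igλ+ cells and 0.953 and 0.996 in wild-type Igκ+ cells, higher on both TAK1-deficient arrays than on any other.

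The scaling of the arrays moved the level of the whole comparison. Under the 5 scalings, Tcf3 and, by its representative probe set, Ebf1 kept the ends of the member order. With the mean of all probe sets of a gene, Ebf1 was -0.73 and Spib, at 0.31, was the highest member. Median centring and spike-in scaling apply 1 constant or factor to an array. They therefore leave the member order, and values relative to the median of all genes, fixed or nearly so. Only quantile normalization and the level adjustment could change these freely. The median difference of all genes was -0.70 with signals as deposited, -1.09 under quantile normalization, -3.08 after centring on the median, -3.94 after scaling to the spiked controls and 0.03 after the level adjustment. Calls that were higher made up 34.4%, 24.5%, 12.9%, 9.29% and 57.8% of all calls in that order. Relative to the median of all genes, Tcf3 lay at -2.25, -3.45, -2.25, -2.12 and -1.61, below it in every scaling. Ebf1 1416301_a_at lay at 1.36, 1.76, 1.36, 1.15 and 1.76, above it in every scaling, and so did Spib (0.80 to 1.23) and Pou2af1 (0.62 to 1.29). Spi1 lay below it in all 5 (-2.29 to -0.71). Foxo1, Ikzf1, Ikzf3, Bach2 and Pax5 changed side with the scaling. With the level adjustment, where 42.7% of all genes were called (24.7% higher and 18% lower), 4 members were called higher (Ebf1, Spib, Pou2af1 and Ikzf3) and 1 lower (Tcf3).

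**Figure D3:**
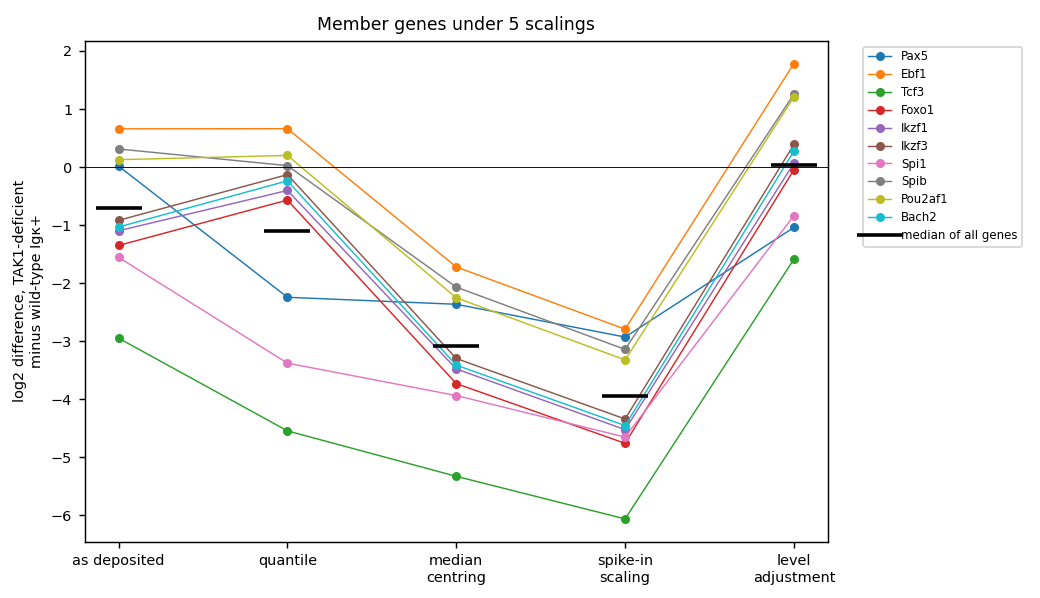
Log2 difference of TAK1-deficient minus wild-type Igκ+ cells (vertical axis) for the 10 member genes under 5 scalings (horizontal axis), with black bars at the median of all genes, -0.70 as deposited and -3.94 with spike-in scaling. Tcf3 is the lowest line throughout and Ebf1, by its representative probe set, the highest, although the Ebf1 value itself turns from 0.66 to -1.72 and -2.79 with median centring and spike-in scaling.

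Positions within an array do not depend on its scaling factor either. For the brightest probe sets the percentile is near its ceiling and can hide a change of signal: Ikzf3 1436649_at, called lower at -0.92, hardly moved in rank. Mean percentiles in TAK1-deficient Igκ+, wild-type Igλ+ and wild-type Igκ+ cells were 99.5, 98.7 and 98.7 for Ebf1 1416301_a_at, 99.3, 98.9 and 99.1 for Pou2af1, and 96.4, 96.9 and 97.0 for Ikzf3 1436649_at. Spi1 stood at 34.9, 77.1 and 76.9, and Pax5 1454401_at at 26.3, 59.9 and 61.4. The representative Foxo1 1416983_s_at stood at 93.8, 97.0 and 96.8, and the further probe set 1416982_at at 61.4, 92.7 and 94.2. Beside these percentiles stand the median signals of 323 to 324 in TAK1-deficient cells and 44.9 to 59.1 in wild-type cells, whose part was not tested.

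**Figure D4:**
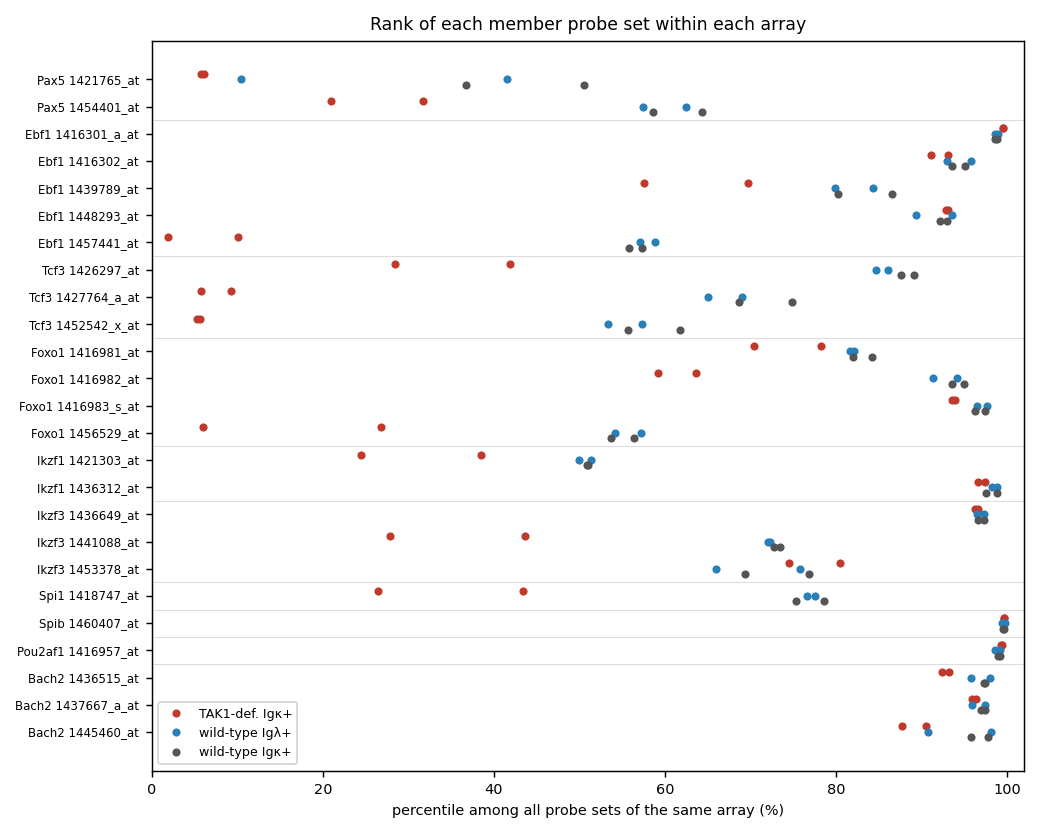
Percentile of each member probe set among all probe sets of the same array (horizontal axis, %), 1 point an array, with TAK1-deficient Igκ+ cells in red, wild-type Igλ+ cells in blue and wild-type Igκ+ cells in grey. Spib and Pou2af1 lie above 98 on all arrays, while the red points of Tcf3 1426297_at, at 28.5 and 41.8, lie far to the left of the wild-type points at 84.7 to 89.0.

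Wild-type Igλ+ against wild-type Igκ+ cells asks whether the factors differ with the light chain a cell carries. By limma, 0 of the 10 member genes and 0 of the 24 member probe sets were called (0% of all genes and 0% of all probe sets), and 0 members had an unadjusted p under 0.05. Over all genes, 2.04% had an unadjusted p under 0.05, and over all probe sets 1.66%. Member log2 differences ran from -0.38 for Tcf3 to 0.09 for Ikzf1, with a median of -0.01. Intervals were narrow for several members: -0.26 to 0.30 for Ebf1, -0.32 to 0.33 for Spib, -0.39 to 0.26 for Pou2af1 and -0.36 to 0.29 for Ikzf3, so those of Ebf1, Spib, Pou2af1 and Ikzf3 leave room for less than 0.4 log2 units either way. Those of Pax5 (-1.11 to 0.84), Tcf3 (-0.99 to 0.23) and Spi1 (-0.75 to 0.80) were wider. Among representative probe sets, Tcf3 alone had groups that did not overlap, 1259 and 1387 in wild-type Igλ+ cells against 1627 and 1831 in wild-type Igκ+ cells, where 22.7% of all genes did not overlap and 9.24% did so with lower values in wild-type Igλ+ cells. Of all 24 probe sets, 4 did not overlap, 3 lower and 1 higher, beside 21.6% of all probe sets (9.02% lower and 12.6% higher). The further 3 were Foxo1 1416981_at (953 and 992 in wild-type Igλ+ cells, 1004 and 1168 in wild-type Igκ+ cells), Ikzf3 1441088_at (403 and 439, against 453 and 457) and Ebf1 1457441_at (113 and 114, against 92.5 and 96.1). The wild-type Igλ+ pair was uneven in other cells' markers, with summed granulocyte markers of 38314 on replicate 1 and 328 on replicate 2, against 330 to 5371 in wild-type Igκ+ cells. The part of these cells in the comparison was not tested.

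Partners of the members were described from lists of other genes, by the 3 with the highest wild-type Igκ+ signal in each. Among E protein partners and Id inhibitors, 1 of 5 was higher and 2 lower in TAK1-deficient against wild-type Igκ+ cells, beside 26.1% and 49.8% of all genes. Id3, an inhibitor of E proteins, had signals of 527 and 364 in TAK1-deficient Igκ+ cells, 1770 and 2428 in wild-type Igλ+ cells and 2286 and 3261 in wild-type Igκ+ cells, a log2 difference of -2.60 ± 0.27 (limma adjusted p = 5.96e-05) that was called lower under all 5 scalings. The E proteins Tcf12 (-1.49, called lower) and Tcf4 (-0.21, not called) were the brightest of the others, and Tcf12 lost its call with the level adjustment (-0.06). Tcf4 was called lower with median centring and spike-in scaling (-2.59 and -3.65) and higher with the level adjustment. Pou2f2 (Oct-2), the octamer factor that Pou2af1 joins, gave 562 and 785 in TAK1-deficient Igκ+ cells, 1773 and 3591 in wild-type Igλ+ cells and 2994 and 2892 in wild-type Igκ+ cells (-2.12 ± 0.32, limma adjusted p = 0.000414), not called with the level adjustment (-0.63).

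ETS factors other than Spi1 and Spib were mostly lower: 6 of 7 were called lower and 1 higher, beside 49.8% and 26.1% of all genes. Their median log2 difference was -1.62 beside -0.70 for all genes. Among brighter genes, with wild-type signals from 751 up, decile medians were -1.54 to -1.21, and the list was not tested against these. The call counts became 3 lower and 1 higher with the level adjustment, with a median of -0.22, beside 18% of all genes lower and 24.7% higher. Ets1 had signals of 1428 and 1976 in TAK1-deficient Igκ+ cells, 6049 and 6940 in wild-type Igλ+ cells and 6656 and 7216 in wild-type Igκ+ cells, and Elf1 differed by -2.83 ± 0.21 (limma adjusted p = 1.03e-05). Both were called lower under all 5 scalings, while Fli1 (-1.49) was not called with the level adjustment (-0.09). The FOXO relatives Foxo3 and Foxo4 were called lower, at -1.70 and -1.28, and neither was called with the level adjustment.

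Some relatives that were dim in the wild-type cells read high in TAK1-deficient cells. Ikzf2 (Helios) had signals of 844 and 980 in TAK1-deficient Igκ+ cells, 118 and 9.56 in wild-type Igλ+ cells and 17.5 and 14.9 in wild-type Igκ+ cells, a log2 difference of 4.85 ± 0.67 (limma adjusted p = 0.000246), called higher under all 5 scalings (1.96 to 4.85). Ebf3, picked out after its values were seen, gave 495 and 613 in TAK1-deficient Igκ+ cells, 27.4 and 33.5 in wild-type Igλ+ cells and 30.3 and 7.14 in wild-type Igκ+ cells, and was likewise called higher under all 5 (1.32 to 4.11), although in wild-type Igκ+ cells only 1 of its 2 readings was above background. Genes in the lowest decile by wild-type signal had a median difference of 4.78, and a like shift of dim genes therefore stands beside both values. For Ikzf2 and Ebf3 the mean wild-type level lay under the filter level of 65.2, so they passed only through high TAK1-deficient readings. Their higher direction was thus fixed in advance, and no conclusion is drawn from their calls. Bach1, a relative of Bach2, was called higher at 0.75 ± 0.16 (limma adjusted p = 0.00293), which turned to -1.63 and -2.69 with median centring and spike-in scaling.

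Counts over target lists are set beside the shares of all genes, 49.8% called lower and 26.1% higher as deposited, and 18% lower and 24.7% higher with the level adjustment; no list was tested against them. Of 5 genes activated by Spi1 or Spib, 5 were called lower, with a median of -1.70. Among them Btk, the kinase of B cell receptor signalling, read 1397 and 1389 in TAK1-deficient Igκ+ cells, 5169 and 4286 in wild-type Igλ+ cells and 4433 and 4701 in wild-type Igκ+ cells. With the level adjustment 2 of the 5 were called lower, Btk was not called (-0.43) and Syk was called higher (0.63). Under quantile normalization 4 were lower. Of 12 genes activated by Foxo1, 7 were lower and 3 higher (median -1.44), and 5 and 2 with the level adjustment. Ccr7, a homing receptor, gave 266 and 478 in TAK1-deficient Igκ+ cells, 4698 and 3700 in wild-type Igλ+ cells and 3916 and 4748 in wild-type Igκ+ cells, a log2 difference of -3.54 ± 0.28 (limma adjusted p = 1.39e-05), and it and Klf2 (-2.25), a factor of lymphocyte quiescence and trafficking, were called lower under all 5 scalings. The 3 that rose were Il7r (1.47), Rag1 (1.52) and Rag2 (3.84), the recombinase genes and the interleukin 7 receptor, named after their values were seen, of which Rag2 was called higher under all 5 scalings, with 1 of its 2 wild-type Igκ+ readings above background. A gene with a wild-type Igκ+ reading at background passes the filter more readily when its TAK1-deficient readings are high. The higher direction was thus favoured for Rag2, and no conclusion is drawn from its call. Il7r turned to -0.91 and -1.84 with median centring and spike-in scaling, and Rag1 to -0.87 and -1.62 with these and to -0.49 under quantile normalization.

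Of 10 genes activated by Pax5, 7 were called lower and 1 higher (median -1.29). With the level adjustment these counts were 2 and 2 (median 0.01), and with spike-in scaling 10 and 0. Of 10 genes that Pax5 represses, 3 were lower, 2 higher and 5 not called (median 0.88, turning to -0.74 under quantile normalization). Cd79a, a signalling partner of surface immunoglobulin, had a log2 difference of -1.36 ± 0.16 (limma adjusted p = 0.000103) and Cd72 one of 0.97 ± 0.14 (limma adjusted p = 0.000344), of which Cd79a was not called with the level adjustment (-0.33, limma adjusted p = 0.0903) and Cd72 turned to -1.41 and -2.49 with median centring and spike-in scaling. Of 11 genes activated by Ebf1 or E proteins, 4 were lower and 4 higher, with 0 lower and 5 higher after the level adjustment and 9 lower and 1 higher with spike-in scaling. Cd79b, like the representative probe set of Ebf1, was called higher at 0.63 ± 0.12, and turned negative under 3 scalings, at -0.24 with quantile normalization, -1.75 with centring on the median and -2.82 with spike-in scaling. Of 4 genes dependent on Pou2af1 or octamer factors, Cxcr5 (-3.70) and Kcnn4 (-1.73) were lower and Ms4a1 (CD20) higher at 1.23, with Cxcr5 called lower under all 5 scalings, Kcnn4 not called with the level adjustment (-0.72) and Ms4a1 turning to -1.15 and -2.23 with median centring and spike-in scaling. Of 6 genes repressed by Ikaros proteins, 3 were lower and 0 higher, a share of lower calls like that of all genes. With the level adjustment 0 were lower and 1 higher, and with spike-in scaling 6 were lower.

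Bach2 targets were few. Of 4 genes that Bach2 represses, 2 were higher and 1 lower in TAK1-deficient Igκ+ cells, and 0 and 1 with the level adjustment. Prdm1 (Blimp-1), the factor of plasma cell differentiation, gave 391 and 759 in TAK1-deficient Igκ+ cells, 71.7 and 90.5 in wild-type Igλ+ cells and 219 and 107 in wild-type Igκ+ cells, a log2 difference of 1.72 ± 0.46 (limma adjusted p = 0.00853) that was not called under quantile normalization (0.61) or with the level adjustment (0.37) and turned to -0.66 and -1.50 with median centring and spike-in scaling. Beside it, of 7 plasma cell markers 2 were higher and 5 lower, with summed signals of 5245 to 6817 in TAK1-deficient Igκ+ cells, 9898 to 20458 in wild-type Igλ+ cells and 22219 to 30267 in wild-type Igκ+ cells. Their part in the result was not tested. In wild-type Igλ+ against wild-type Igκ+ cells, 0 genes of these partner and target lists were called.

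**Figure D5:**
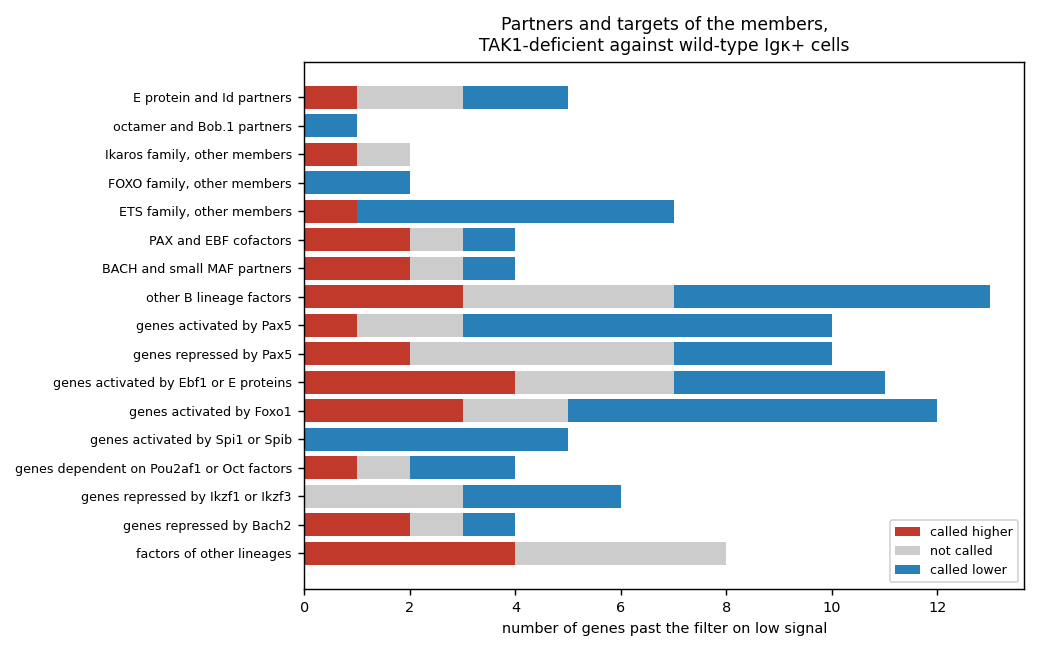
Number of genes called higher (red), not called (grey) and called lower (blue) in TAK1-deficient against wild-type Igκ+ cells, by list of partners and targets, with signals as deposited. The 5 genes activated by Spi1 or Spib were all called lower, and 7 of 12 activated by Foxo1, beside 49.8% of all genes. With the level adjustment these counts were 2 and 5, beside 18% of all genes.

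The genes most like a member over the 6 arrays were found by the root-mean-square distance between log2 signals, each centred on its mean, among 11696 genes. Ebf1 1416301_a_at lay closest to Cd79b (0.04), then Rps24 and Zfp955b. Ikzf3 lay closest to Sel1l (0.02), Bach2 to Zfc3h1, Ikzf1 to Tbccd1 and Foxo1 to Plekha1. Pou2af1 lay closest to Slc26a11 and Foxp1, Spib to Pdcd4, Spi1 to Chchd1 and Pax5 to Nufip2. Tcf3 had its nearest neighbour, Ube2a, at 0.11, the largest such distance of the 10. With 3 groups of 2 arrays, likeness mainly means a like difference between TAK1-deficient and wild-type arrays.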

How the data were processed

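RNA of the 6 samples was hybridised to Affymetrix arrays of 45101 probe sets. Per the submitters' processing notes, MAS5 made the linear probe set intensities that were deposited; a version is not given in the sources used here. Without the lowest and highest 2% of probe sets, each array averages 500, so the deposited intensity carries 1 scaling factor an array. Precision is limited by how few arrays there are. Groups came from sample titles, and the array with the title suffix "-rep" is replicate 2.

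Gene names came from the annotation of the platform: 34945 carried 1 symbol, 932 several and 9160 none, and 64 were controls. The Entrez identifiers of 34741 were found in RefSeq GRCm38.p6, which changed 0 symbols. Intensities became log2(signal + 16), which understates changes of dim genes. A gene was represented by its probe set of highest mean, and those above the 40th percentile of mean log2 value were kept, 11696 genes and 21814 probe sets. This mean was over all 6 arrays, so genes dim on all wild-type arrays passed only if bright on the TAK1-deficient ones. Groups were compared with limma 3.58.1 (R 4.3.3) over all 6 arrays, eBayes with a trend, two-sided, Benjamini-Hochberg adjusted, threshold 0.05. A reading is called background at or below the 95th percentile of 27 unspiked controls. The code was tested on simulated data. Level adjustment is a lowess correction (span 0.2) of each TAK1-deficient array; spike-in scaling used 18 control probe sets.

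Members, lists, tests and alternatives were chosen with earlier results of these data known. All members, Map3k7, the 3 genes of each list with the highest wild-type Igκ+ signal and the 3 nearest neighbours of a member were taken for naming. No list test was run.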

Additional observations from a re-analysis of the deposited data

How the results depend on the processing

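Tcf3 kept its call under all 18 alternatives. Member genes called higher in TAK1-deficient against wild-type Igκ+ cells (1 as reported) numbered 2 with no filter or the title suffix as a replicate block, 4 with the level adjustment, and 0 after centring on the median, scaling to spiked controls or taking the mean of all probe sets of a gene. Those called lower (6) numbered 10 with median centring, 10 with spike-in scaling, but 1 with the level adjustment. Under quantile normalization 4 were lower: Ikzf1, Ikzf3 and Bach2 lost the call and Pax5 gained one. Member probe sets called higher (2) numbered 1 with the filter at the 60th percentile or quantile normalization, 4 with the level adjustment, 0 with median centring or spike-in scaling, and those called lower (17) numbered 6 with the level adjustment. Of all genes, higher calls (3054) numbered 8811 with no filter, 908 with the filter at the 60th percentile, 976 with spike-in scaling and 1346 with median centring. Lower calls (5824) numbered 9109 with median centring, 2109 with the level adjustment and 9528 with spike-in scaling. Leaving out each array in turn gave 1 and 6 member genes, 2 and 12 to 17 member probe sets, and 2649 to 3226 and 5036 to 6016 genes called higher and lower. In wild-type Igλ+ against wild-type Igκ+ cells it gave 0 to 48 genes higher and 0 to 20 lower, with 48 and 20 without wild-type Igλ+ replicate 2 and 7 lower without wild-type Igλ+ replicate 1, and 0 members.

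Directions turned as follows. Under median centring and then spike-in scaling, Ebf1 was -1.72 and -2.79, Pou2af1 -2.25 and -3.32, Pax5 -2.37 and -2.93, Spib -2.07 and -3.14, Ikzf1 1421303_at -0.85 and -1.34, and Ikzf3 1453378_at -1.71 and -2.65. With quantile normalization, Pax5 was -2.24, Ikzf1 1421303_at -1.09 and Ebf1 1448293_at 0.056. With the level adjustment, Ikzf1 was 0.068, Ikzf3 0.39, Bach2 0.27, Ebf1 1416302_at 0.38, Ebf1 1448293_at 0.78 (called higher), Foxo1 1416981_at 0.42 and Ikzf1 1421303_at -0.52. With the mean of all probe sets of a gene, Ebf1 was -0.73 and Ikzf1 0.22. The cause was not tested. Of 412 member values under alternatives in this comparison, 354 kept direction and call, 26 lost the call, 8 gained one and 24 turned; in the wild-type comparison all 388 stayed uncalled, 44 with another sign. Pax5 has no value with the filter at the 60th percentile.

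The title suffix pairs no samples by the labels. Replicate differences correlated across genes at r = 0.03 and 0.01 between TAK1-deficient and the wild-type groups and 0.22 between these. With the suffix as a replicate block, Spib was called higher (limma adjusted p = 0.0444). Dim readings on the TAK1-deficient arrays are limited by a background of 75.7 to 77.7.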

Other observations

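Factors of other lineages, which B lineage factors are known to hold down, were picked out after their values were seen. Of 8 that passed the filter, 4 were called higher in TAK1-deficient against wild-type Igκ+ cells and 0 lower, beside 26.1% of all genes higher and 49.8% lower. Factors dim on all wild-type arrays, such as Bcl11b, could pass this filter only through high TAK1-deficient readings. For these the higher direction was fixed in advance, so no conclusion is drawn from the count. Their median log2 difference of 2.53 turned to -0.34 with spike-in scaling. Under quantile normalization 3 were higher and 2 lower, under either the median or the spike-in scaling 1 higher and 2 lower, and with the level adjustment 1 higher and 0 lower. Bcl11b, a factor of T cell commitment, had signals of 2431 and 2313 in TAK1-deficient Igκ+ cells, 18.9 and 14.6 in wild-type Igλ+ cells and 15.98 and 5.07 in wild-type Igκ+ cells. It was called higher under all 5 scalings, with fitted log2 differences of 3.43 to 6.52 (limma adjusted p = 3.97e-06 as deposited), although only 1 of the 2 wild-type Igκ+ readings was above background. Beside it, the summed signal of 8 T cell markers was 4886 to 5395 in TAK1-deficient Igκ+ cells, 110 to 310 in wild-type Igλ+ cells and 180 to 223 in wild-type Igκ+ cells. Bcl11b is 1 of these 8, and of the CD3 chains Cd3d was not above background in TAK1-deficient Igκ+ cells (71.4 and 73.7) while Cd3e read 271 and 287 there, 40.2 and 7.86 in wild-type Igλ+ cells and 2.15 and 27.5 in wild-type Igκ+ cells. With spike-in scaling 2 of the 5 T cell markers tested were called higher. These 5 had passed the same filter, so the limit above holds for those dim on the wild-type arrays. Eomes (3.22), Tal1 (4.13) and Gata1 (2.67) lost their calls with median centring, spike-in scaling and the level adjustment, and Gata1 also under quantile normalization. T cell markers were not alone: the summed signal of 8 stromal and endothelial markers was 5163 to 5279 in TAK1-deficient Igκ+ cells, 998 to 1042 in wild-type Igλ+ cells and 1132 to 1301 in wild-type Igκ+ cells. That of 7 NK cell markers was 1418 to 1607, 926 to 1962 and 952 to 3114 in the same order. The part of array background or of other cells in these values was not tested.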
